A study of Mus musculus with 10 samples.

Results

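The IL-3 receptor, the kinase and transcription factors that carry its signal, and a set of genes that the signal commonly induces were followed through the OP9 libraries. The 9 genes were Il3ra, Csf2rb, Csf2rb2, Jak2, Stat5a, Stat5b, Cish, Socs2 and Pim1. They were chosen by name, from the role each has in IL-3 signalling, and were 9 of the 26888 genes with a value. All 9 were above 0.5 RPM (reads of a gene per 1000000 reads on all genes) in at least 1 library, as were 16933 genes in all.

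OP9 is a stromal cell line from calvaria of (C57BL/6xC3H)F2-op/op mice, which lack functional M-CSF. The labels call the calvaria foetal and the published text calls the mice newborn. The line is used as a supporting layer for haematopoietic cells. All 10 libraries came from this line, so they compare cultures of 1 line and not animals. Cells had either been reaggregated and kept for 48 h at the liquid-gas interface on nitrocellulose filters with 0.8-µm pores, in 6 cultures, or grown flat and submersed in medium, in 4 cultures. Of the reaggregates, numbers 2, 4 and 6 received IL-3, for which the stated concentration was 200 µg/µl, and numbers 1, 3 and 5 did not. That concentration is unusually high for a cytokine, its unit may be a misprint, and the dose is therefore uncertain. The label of flat cultures 2 and 4 carried the name de Bruijn, as their source, and those of flat cultures 1 and 3 named no group. The published text names the groups of A. Medvinsky and M. de Bruijn as places where cells for flat culture had been kept. It puts variance from cell source on a par with that from passage number. The flat cultures had no labelled IL-3 treatment and no labelled culture time, and the reaggregates no labelled cell source. Nothing in the labels says whether the libraries of a group came from separately started cultures, so p-values measure the spread between these libraries, which may in part be technical. Estimated depth was between 7.35 M and 9.43 M reads on genes per library, and 3 reads, the smallest amount taken as detectable, corresponded to between 0.318 and 0.408 RPM. This floor covers counting error only.

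IL-3 binds an alpha chain that is specific for it, encoded by Il3ra, together with a beta chain. In the mouse the beta chain is either the common one, encoded by Csf2rb and shared with the receptors for GM-CSF and IL-5, or a close relative used for IL-3 alone, encoded by Csf2rb2. JAK2, bound to the beta chain, phosphorylates STAT5A and STAT5B, which enter the nucleus and induce genes such as Cish, Socs2 and Pim1. The products of Cish and Socs2 restrain cytokine receptor signalling, and Pim1 encodes a serine/threonine kinase that promotes survival. In blood progenitors IL-3 is a growth and survival factor, and IL-3 is added to cultures in which OP9 cells support the maturation of stem cells.

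Sets of marker genes described the cells. The 8 stromal markers were all above the filter, and their summed level was between 19166 and 26730 RPM in reaggregates and between 11656 and 19213 RPM in flat cultures. Col1a2, a collagen chain, at 1190 to 11300 RPM, was the most abundant of them in each reaggregate, and Vim, which encodes vimentin, in each flat culture. The markers did not go 1 way: Col1a1, Col1a2, Pdgfra and Pdgfrb were called higher in reaggregates and Kitl lower (log2 difference -1.01, limma adjusted p = 0.00386), while Vim, Mcam and Cxcl12 had lower means there and were not called. Of the 12 haematopoietic markers, 11 had a value and 6 were above the filter, and Ptprc (which encodes CD45), Gata1 and Adgre1 (F4/80, listed under its older name) were listed at 0 in every library, while Kit reached at most 0.108 RPM and Mpo 0.0192 RPM. Their summed level, which was mainly Cd34, at up to 72.6 RPM, and Itga2b, at up to 23.0 RPM, was 41.3, 32.7 and 61.1 RPM in reaggregates 1, 3 and 5 and 41.1, 30.8 and 66.2 RPM in reaggregates 2, 4 and 6. The mean was 46.0 RPM with IL-3 and 45.1 RPM without. Itga2b was called higher in reaggregates than in flat cultures (log2 difference 1.87, limma adjusted p = 0.0185), although reaggregates 5 and 6, at 11.7 and 9.14 RPM, were below flat culture 3, at 11.8 RPM. In flat cultures 1, 2, 3 and 4 the same sum was 87.2, 2.58, 42.3 and 5.30 RPM, with Cd34 listed at 0 in both cultures labelled de Bruijn. The 4 endothelial markers summed to at most 1.03 RPM in any library, of which Pecam1 was the most abundant, with a highest value of 0.716 RPM. The 5 adipocyte markers summed to between 90.9 and 133 RPM in reaggregates, and to 116, 1020, 170 and 1126 RPM in flat cultures 1, 2, 3 and 4. Fabp4 was the most abundant of these in both de Bruijn cultures, at 435 and 711 RPM, but not in flat cultures 1 and 3 or in any reaggregate, where Pparg or Cebpa was. Against all flat cultures, Pparg (log2 difference -1.67, limma adjusted p = 0.0329), Fabp4 (-2.37, adjusted p = 0.0385) and Cebpa (-1.36, adjusted p = 0.0190) were called lower in reaggregates. In bulk RNA, fewer cells of a type and less RNA per cell cannot be told apart.

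The receptor chains were transcribed at very different levels. Per kilobase of annotated exon, Il3ra had the highest level of the 9 genes in reaggregates, 24.5 ± 5.01 RPM per kb (SD, n = 6), against 0.598 ± 0.576 for Csf2rb and 0.0590 ± 0.0540 for Csf2rb2. In single reaggregates the Il3ra level per kb was between 15.1 and 190 times that of Csf2rb. In flat cultures the corresponding levels per kb were 14.0 ± 4.51 (SD, n = 4) for Il3ra, 0.114 ± 0.0958 for Csf2rb and 0.00362 ± 0.00277 for Csf2rb2. Il3ra was above the 3-read floor in all 10 libraries, and Csf2rb in 8, while Csf2rb2 was above it in 3, which were reaggregates 1, 2 and 6.

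Il3ra (ENSMUSG00000068758, chr14:15179009-15188004, plus strand, NCBIM37) was at 38.4, 38.2 and 30.7 RPM in reaggregates 1, 3 and 5, without IL-3, and at 35.3, 40.6 and 21.7 RPM in reaggregates 2, 4 and 6, with IL-3. In flat cultures 1 to 4 it was at 11.1, 21.2, 26.2 and 19.3 RPM. The groups with and without IL-3 overlapped, and 5 of the 6 reaggregates were above all flat cultures, the exception being reaggregate 6. The log2 difference between reaggregates and flat cultures was 0.83 (SE 0.25), a 1.78-fold higher level (limma adjusted p = 0.0277). This passed the threshold on p but not the fold of at least 2 that a call required. The pass on p was lost without reaggregate 1 (0.0598), 2 (0.0558), 3 (0.0573) or 4 (0.0586), and without flat culture 1 (0.0626) or 4 (0.0633). It was also lost with no filter on low values (0.0611), with consecutive reaggregates averaged (0.146), with either IL-3 group of reaggregates alone (0.210 and 0.105), and against the cultures with no group named alone (0.0795). With replicate number as a block Il3ra was called (log2 difference 1.01, limma adjusted p = 0.0293). In that fit, here and below, reaggregates 5 and 6 do not enter the difference, because no flat culture has their number. Over all alternatives the adjusted p was between 0.00974 and 0.210. The exact two-sided permutation test over all 210 splits into 6 and 4 libraries gave p = 0.0190. This test, here and below, takes all libraries as separate, although consecutive reaggregates resembled each other. Against the flat cultures of each source the log2 difference was 0.71 for de Bruijn cultures and 0.95 for those with no group named. With IL-3 the log2 difference was -0.17 (95% interval -0.79 to 0.44), and changes of a size within this interval could not be told from none.

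Csf2rb (ENSMUSG00000071713, chr15:78156420-78184277, plus strand) was at 2.39, 0.731 and 1.62 RPM without IL-3, in reaggregates 1, 3 and 5. With IL-3 it was at 8.50, 1.0 and 3.96 RPM in reaggregates 2, 4 and 6. The values in flat cultures 1 to 4 were 0.345, 1.29, 0.464 and 0.213 RPM, of which the first and the last were at or under the floor. The IL-3 groups overlapped, because reaggregate 4 lay within the range of those without IL-3, and reaggregate 2 had by far the highest value of all libraries. Expressed as reads, Csf2rb rested on about 6.71 to 18.7 reads without IL-3 and 7.81 to 62.5 reads with it.

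The log2 difference of Csf2rb with IL-3 was 1.0 (SE 0.69, 95% interval -0.68 to 2.67), which ranked 4 among the increases of all 16933 genes. It did not pass the limma test (unadjusted p = 0.197, adjusted p = 1), and the exact permutation test of 3 against 3 libraries, which cannot give a p below 0.1, gave 0.3. Without reaggregate 2 the log2 difference was 0.40, and without reaggregate 4 it was 1.69. Compared with flat cultures, Csf2rb was 2.75-fold higher in reaggregates (log2 difference 1.46, SE 0.51, limma adjusted p = 0.0521) and so just missed the threshold, with 4 of 6 reaggregates above all flat cultures. With a pseudocount of 0.1 in place of 0.5 it was called (log2 difference 1.98, adjusted p = 0.0407). It was also called with replicate number as a block (adjusted p = 0.0350), without reaggregate 3 (0.0343), without reaggregate 4 (0.0480) and without flat culture 2 (0.0434). Settings without a call included no filter on low values (limma adjusted p = 0.128) and leaving out flat culture 4 (0.145). With only the reaggregates that had not received IL-3, the log2 difference was 0.96, the smallest over all alternatives and below the fold of 2. Over all alternatives the adjusted p was between 0.0343 and 0.179.

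Csf2rb2 (ENSMUSG00000071714, chr15:78112947-78136052, minus strand) lies beside Csf2rb and was close to or under the floor throughout. It was at 0.431, 0.0311 and 0.00362 RPM in reaggregates 1, 3 and 5 and at 0.628, 0.149 and 0.396 RPM in reaggregates 2, 4 and 6. Flat cultures 1 to 4 had 0, 0.0217, 0.0150 and 0.0304 RPM, all under the floor, so no fold is given. Values below that of 1 read arise because reads that mapped to several genes had been divided among them. This matters for the beta chains, since 19.1% of the distinct 50-base windows of Csf2rb2 coding transcripts, the length of a read, also occur in Csf2rb, and 17.4% of those of Csf2rb occur in Csf2rb2. Their longest identical coding run is 242 bases.

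A stretch of that run is shown because reads from it cannot be placed on either gene alone. It lies in exon 14 of 14 of both genes, on chromosome 15 of NCBIM37, on the plus strand for Csf2rb and the minus strand for Csf2rb2, and is printed in the direction of transcription with no part in capitals, because all 50 bases are shared.
Csf2rb, chr15:78179103-78179152, and Csf2rb2, chr15:78115156-78115205: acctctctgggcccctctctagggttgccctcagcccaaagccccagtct
The level of each beta chain is therefore uncertain, and the sum of both depends less on how reads were divided between them. That sum was 2.82, 0.762 and 1.62 RPM in reaggregates 1, 3 and 5, and 9.13, 1.15 and 4.36 RPM in reaggregates 2, 4 and 6. In flat cultures 1 to 4 it was 0.345, 1.31, 0.479 and 0.243 RPM. Csf2rb made up 91.7% of the sum over all reaggregates. Summed before the comparison, the beta chains were called higher in reaggregates than in flat cultures (log2 difference 1.53, limma adjusted p = 0.0458), with adjusted p = 0.0521 for Csf2rb taken alone. The sum was chosen as an alternative after the values were seen. With IL-3 the summed log2 difference was 1.04 (limma unadjusted p = 0.186, adjusted p = 1). With consecutive reaggregates as pairs, a pairing the labels do not state, the unadjusted p of the sum was 0.00641 and the adjusted p 0.982.

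The kinase Jak2 (ENSMUSG00000024789, chr19:29326318-29387570, plus strand) was at 53.7, 53.8 and 42.2 RPM in reaggregates 1, 3 and 5 and at 58.3, 53.4 and 48.0 RPM in reaggregates 2, 4 and 6. In flat cultures 1 to 4 it was at 57.7, 31.7, 92.9 and 32.1 RPM. The reaggregates lay close together and within the range of the flat cultures. Both de Bruijn cultures were below all reaggregates, flat culture 3 was above all of them, and flat culture 1 was within their range. The log2 difference between reaggregates and flat cultures was 0.08 (SE 0.27, limma adjusted p = 0.830), and it turned to -0.01 with quantile normalization. It was 0.68 against de Bruijn cultures alone, which passed on p (adjusted p = 0.00372) but not on fold, and -0.51 against those with no group named (adjusted p = 0.0998). Over all alternatives the adjusted p was between 0.00372 and 0.972. Without flat culture 2 or 4 the difference was negative (-0.12 and -0.11). With IL-3 the log2 difference was 0.10 (95% interval -0.25 to 0.45).

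Stat5a and Stat5b are neighbours on chromosome 11 and encode closely related factors. Stat5a (ENSMUSG00000004043, chr11:100720665-100746483, plus strand) was at 76.0, 63.6 and 64.4 RPM without IL-3 and at 79.1, 56.1 and 66.4 RPM with it, in reaggregates 1, 3 and 5 and 2, 4 and 6. The values in flat cultures 1 to 4 were 40.0, 36.1, 63.1 and 27.8 RPM. The groups with and without IL-3 overlapped, and 5 of 6 reaggregates were above all flat cultures, while reaggregate 4 was below flat culture 3. The reaggregates were 1.67-fold higher (log2 difference 0.74, SE 0.20, limma adjusted p = 0.02), below the fold of 2, and the exact permutation test gave p = 0.0190. Against the de Bruijn cultures alone the log2 difference was 1.07 (adjusted p = 0.000613), and against those with no group named 0.41 (adjusted p = 0.168). The pass on p was lost without flat culture 4 (log2 difference 0.57, adjusted p = 0.0668), with replicate number as a block (0.0518), with consecutive reaggregates averaged (0.144) and with either IL-3 group of reaggregates alone (0.161 and 0.133). Over all alternatives the adjusted p was between 0.000613 and 0.168.

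Stat5b (ENSMUSG00000020919, chr11:100642045-100712038, minus strand) was at 70.5, 57.7 and 53.1 RPM in reaggregates 1, 3 and 5 and at 71.1, 60.7 and 52.0 RPM in reaggregates 2, 4 and 6. Flat cultures 1 to 4 had 46.5, 27.6, 74.3 and 28.5 RPM, so that 1 flat culture was above all reaggregates. The log2 difference between reaggregates and flat cultures was 0.57 (SE 0.26, limma adjusted p = 0.112), and it was 1.09 against de Bruijn cultures alone, where Stat5b was called (adjusted p = 0.000417), and 0.04 against those with no group named (adjusted p = 0.912). Without flat culture 3 it was 0.85 and passed on p (adjusted p = 0.00531) but not on fold. Over all alternatives the adjusted p was between 0.000417 and 0.912. With IL-3 the log2 difference was -0.03 for Stat5a (95% interval -0.41 to 0.36) and 0.02 for Stat5b (-0.39 to 0.42). Both signs depended on single libraries.

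Of the distinct 50-base windows of Stat5a coding transcripts, 14.7% also occur in Stat5b, and 11.1% of those of Stat5b occur in Stat5a, with a longest identical coding run of 324 bases, so part of their reads could map to both genes as well. In addition, 72 bases of the Stat5a exons overlap exons of Stat3 on the other strand. The library preparation was not stated to keep strand, and reads from such an overlap cannot then be assigned to 1 gene. Stat3 is itself a family member and was at 215 to 472 RPM in reaggregates and 48.5 to 226 RPM in flat cultures.

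Among the induced genes, Cish (ENSMUSG00000032578, chr9:107198357-107205115, plus strand) had the lowest level per kb in both kinds of culture. It was at 6.03, 15.8 and 6.40 RPM in reaggregates 1, 3 and 5 and at 6.81, 11.8 and 5.84 RPM in reaggregates 2, 4 and 6. In flat cultures 1 to 4 it was at 6.33, 17.3, 12.6 and 11.7 RPM. The groups overlapped in both comparisons, and reaggregates 3 and 4 had the highest values of the reaggregates, with and without IL-3 alike. The log2 difference with IL-3 was -0.12 (95% interval -1.20 to 0.95). The sign turned without reaggregate 3 (0.30) and without reaggregate 6 (0.07). Reaggregates against flat cultures gave -0.45 (SE 0.34, limma adjusted p = 0.324). Exons of Cish overlap those of Gm17040 and Gm17041 on the other strand, over 261 and 479 bases.

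Socs2 (ENSMUSG00000020027, chr10:94847996-94879814, minus strand) was at 59.7, 61.7 and 59.1 RPM in reaggregates 1, 3 and 5, without IL-3. With IL-3 it was at 66.4, 69.6 and 82.2 RPM in reaggregates 2, 4 and 6. The groups with and without IL-3 did not overlap, which was so, in this direction, for 196 of the 16933 genes, or 1.16%, and for 1 of the 9 members. The level was 1.2-fold higher with IL-3 (log2 difference 0.27, SE 0.12, 95% interval -0.02 to 0.55), with a mean of 72.7 ± 8.35 against 60.2 ± 1.36 RPM (SD, n = 3). It did not pass the test (limma unadjusted p = 0.0600, adjusted p = 1), and the exact permutation test gave 0.1, the smallest p it can give here. No alternative turned its direction, and without single libraries the log2 difference was between 0.18 and 0.33.

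The level of Socs2 in flat cultures 1 to 4 was 102, 60.6, 98.3 and 58.5 RPM. All reaggregates were below both cultures with no group named and above flat culture 4, and reaggregates 1 and 5 were below flat culture 2. The log2 difference between reaggregates and flat cultures was -0.22 (SE 0.19, limma adjusted p = 0.376), and it was 0.15 against de Bruijn cultures (adjusted p = 0.424). Against those with no group named it was -0.60, which passed on p (adjusted p = 0.0258) but not on fold. Over all alternatives the adjusted p was between 0.0258 and 0.839. Of the 50-base windows of Socs2 coding transcripts, 6.15% also occur in another coding gene, Gm9847.

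Pim1 (ENSMUSG00000024014, chr17:29627757-29632390, plus strand) was at 29.6, 25.2 and 15.6 RPM without IL-3 and at 24.5, 30.4 and 14.4 RPM with it, in reaggregates 1, 3 and 5 and 2, 4 and 6. The values in flat cultures 1 to 4 were 7.26, 11.3, 13.0 and 9.14 RPM. All 6 reaggregates were above all 4 flat cultures, and reaggregates 5 and 6 were the lowest of them. The mean was 23.3 ± 6.84 RPM (SD, n = 6) against 10.2 ± 2.50 RPM (SD, n = 4), a 2.19-fold higher level (log2 difference 1.13, SE 0.26, limma adjusted p = 0.00864). The exact permutation test, which takes all 6 reaggregates as separate, gave p = 0.00952, the smallest it can give. The log2 difference was 1.10 against de Bruijn cultures and 1.16 against those with no group named. The call was lost without flat culture 1, where the log2 difference was 0.99. It was also lost with consecutive reaggregates averaged (adjusted p = 0.0745) and with only the reaggregates that had received IL-3 (0.0921) or had not (0.0685). Over all alternatives the adjusted p was between 0.00472 and 0.0921. With IL-3 the log2 difference was -0.04 (95% interval -0.89 to 0.81). Over 468 bases, or 23.7%, the Pim1 exons overlap those of Gm16912 on the other strand, a gene listed at 0.337 to 1.94 RPM.

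**Figure D1:**
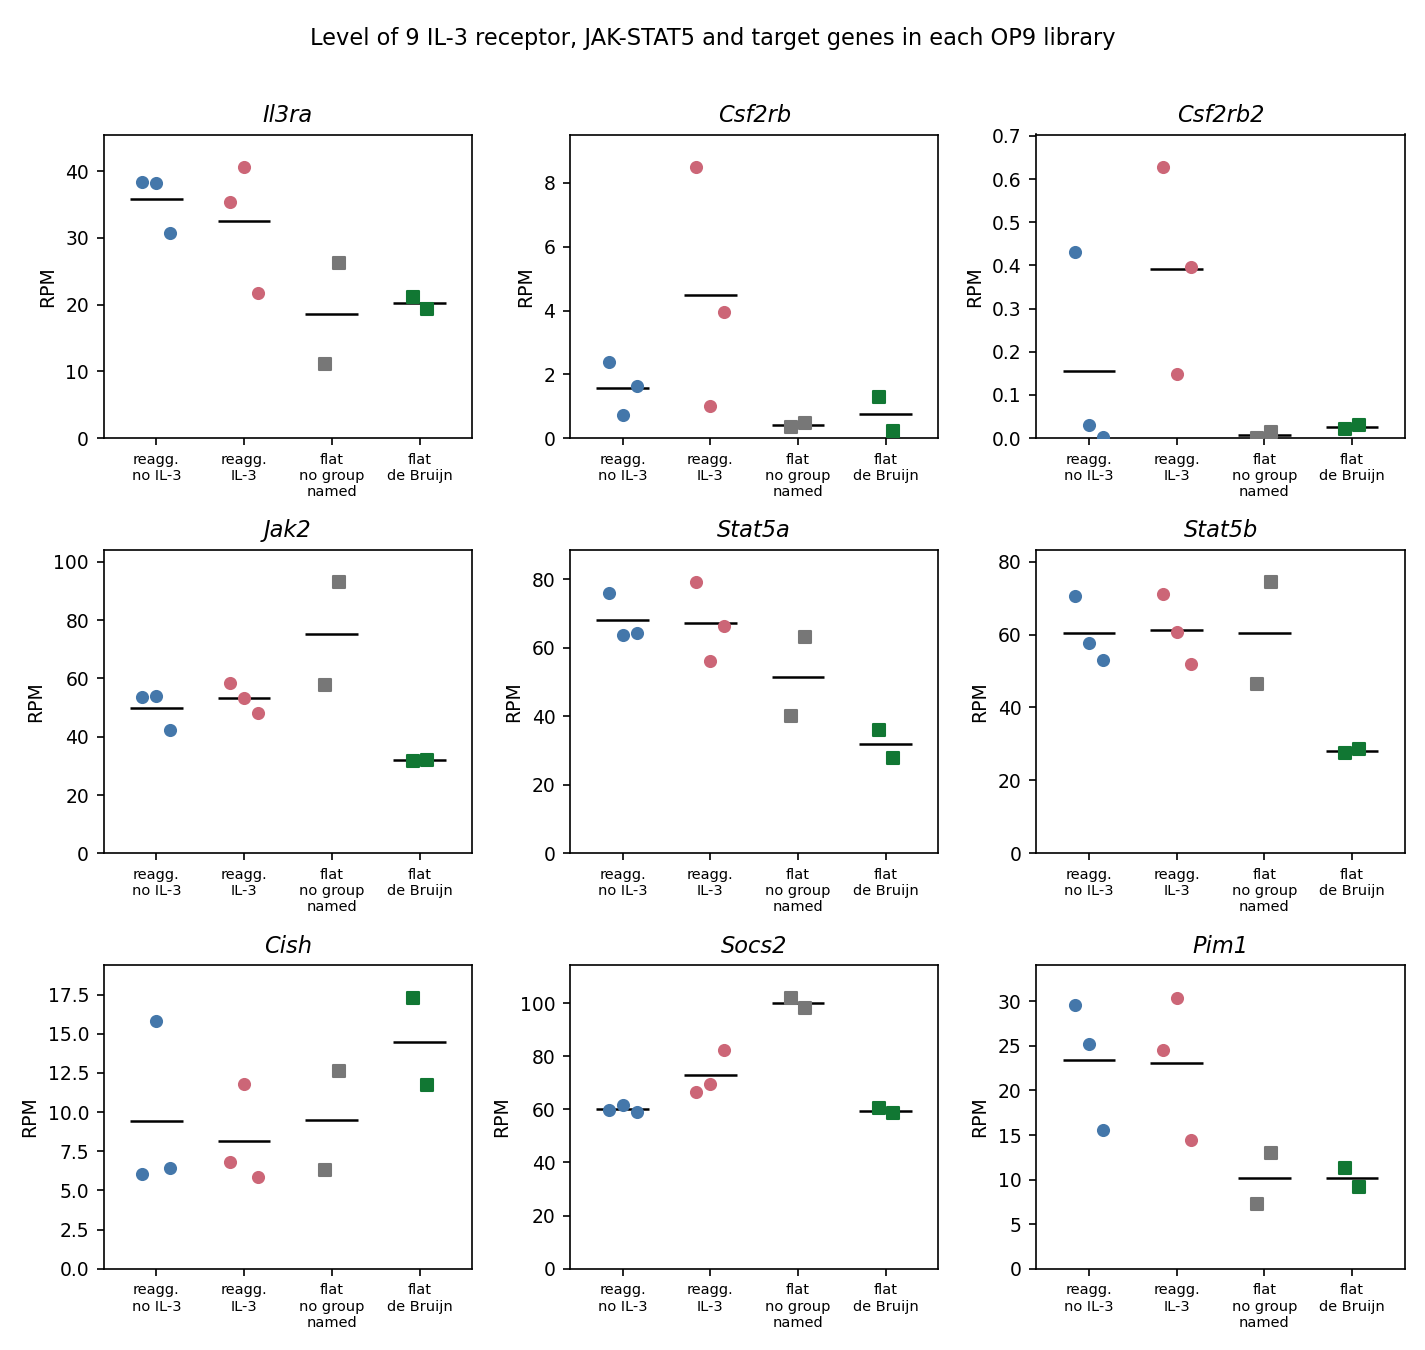
Level of each of the 9 genes in each library, in RPM on a linear axis from 0, by group; points are libraries in order of their number within a group, and lines are group means. Pim1 was higher in every reaggregate than in every flat culture, Socs2 was higher in the 3 reaggregates with IL-3 than in the 3 without, and Jak2, Stat5a, Stat5b and Socs2 were lower in both flat cultures labelled de Bruijn than in both others.

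The question whether added IL-3 altered these genes was put to all genes at once. Of all 16933 genes, 0, or 0%, had a fold of at least 2 and an adjusted p of at most 0.05 by limma, and so 0 of the 9 members. At an unadjusted p of at most 0.05 there were 68 genes, or 0.402%, and again 0 members. The number of genes called was 0 under every alternative. The median log2 difference was 0.02 over the members and 0.01 over all genes tested, with 5 members higher and 4 lower. Each member had an adjusted p of 1, and exact permutation gave p-values from 0.1 to 1. By limma, the 3 genes with the smallest unadjusted p were Fabp3, a fatty acid binding protein (log2 difference -0.82, unadjusted p 0.00204), AC137150.1 (0.81, unadjusted p 0.00224) and AL627102.1 (-0.77, unadjusted p 0.00256), all with an adjusted p of 1 and none above 0.681 RPM in any reaggregate.

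Consecutive numbers gave 3 pairs of reaggregates (1 with 2, 3 with 4, 5 with 6), in each of which 1 culture had received IL-3, and whose libraries were alike. Their deviations from the mean of all 6 reaggregates correlated across genes, which are not independent replicates, with r = 0.50, 0.72 and 0.76. The labels do not say that consecutive reaggregates were set up together, so their pairing is a reading of the numbers. Compared in these pairs, Csf2rb was 3.56 times as high with IL-3 in reaggregate 2 as in 1, 1.37 times in 4 as in 3, and 2.44 times in 6 as in 5. Socs2 was 1.11, 1.13 and 1.39 times as high in the same order. Csf2rb2 also had the higher value with IL-3 in all 3 pairs, at levels near or under the floor. Counting Csf2rb2, which was above the filter through reaggregate 2 alone and shares sequence with Csf2rb, these were 3 of the 9 members, and without it 2. Of the 16933 genes, 2158, or 12.7%, were higher with IL-3 in all 3 pairs.

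With the pairs as a block, limma again called 0 genes and 0 members, and 564 genes had an unadjusted p no higher than 0.05. The log2 difference of Csf2rb then had a 95% interval of 0.32 to 1.68 and an unadjusted limma p of 0.0115, and that of Socs2 an interval of 0.07 to 0.46 and a p of 0.0148. In all, 358 genes, or 2.11%, were higher with IL-3 at an unadjusted p of at most 0.05 in this fit, and 3 of the 9 members. The 3 included Csf2rb2, for which the test carries little weight, because only reaggregate 2, with IL-3, brought it above the filter, most of its values were under the floor, and it shares sequence with Csf2rb. The adjusted p was 0.982 for each of the 3, so none held after correction over all genes. With 1 pair left out in turn, the unadjusted p of Csf2rb was 0.0597 without reaggregates 1 and 2, 0.00300 without 3 and 4, and 0.0694 without 5 and 6. That of Socs2 was 0.0203, 0.0333 and 0.0489 in the same order, and that of Csf2rb2 0.0515, 0.0644 and 0.197. Pairing narrowed the 95% intervals of the other members too, to -0.49 to 0.25 for Cish, -0.46 to 0.11 for Il3ra, -0.33 to 0.25 for Pim1, -0.06 to 0.25 for Jak2, -0.19 to 0.14 for Stat5a and -0.11 to 0.15 for Stat5b. These hold only if the pairing does. Among these 6 members, no log2 difference was of 1 sign in all 3 pairs, and Cish and Pim1, both induced by STAT5, were higher with IL-3 in 1 pair each. The adipocyte markers Fabp4 (log2 difference 0.22) and Adipoq (0.44) were higher with IL-3 in all 3 pairs. Pparg and Cebpa were higher in 2 pairs and Plin1 in 1. The stromal marker Cxcl12 (0.05) was higher in all 3 pairs. Pdgfra and Kitl were however higher in 2 pairs, and Pdgfrb, Col1a1, Col1a2, Vim and Mcam in 1. Of the haematopoietic markers above the filter, Itga2b (-0.14) was lower in all 3 pairs. Spn, Itgam and Cd48 were higher in 2 pairs, and Cd34 and Csf1r in 1. Pecam1 (-0.57), the 1 endothelial marker above the filter, was lower in all 3. Adipoq and Pecam1 reached at most 0.768 and 0.643 RPM in reaggregates. The part of cell types in the differences of Csf2rb and Socs2 was not tested.

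**Figure D2:**
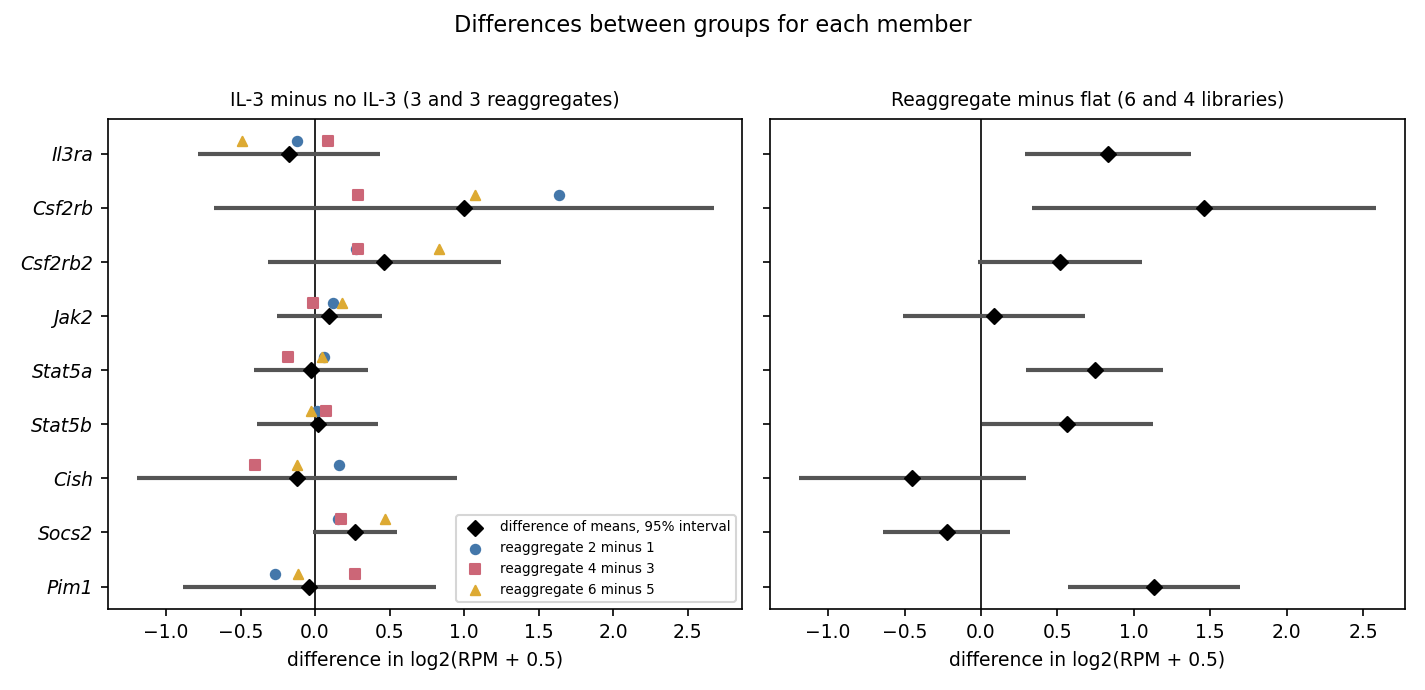
Difference of log2(RPM + 0.5) for each of the 9 genes, with IL-3 minus without (left) and reaggregate minus flat (right). Diamonds are differences of group means and bars their 95% intervals from limma without pairs; coloured points are the differences within consecutive reaggregates, which for Csf2rb, Csf2rb2 and Socs2 were above 0 in all 3 pairs.

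Between reaggregates and flat cultures, 1239 genes, or 7.32%, were called higher in reaggregates and 1106, or 6.53%, lower. Of the 9 members, 1 was called higher (Pim1) and 0 lower, a share near that of all genes. At an adjusted p of at most 0.05 and any fold, 3 members were higher (Il3ra, Stat5a and Pim1), against 2299 genes, or 13.6%. Pim1 was the 1 member of which every reaggregate was above every flat culture, as for 1320 genes, or 7.80%. With consecutive reaggregates averaged, since the libraries of a pair were alike and are here taken as separate, the numbers were 312 higher, 429 lower and 0 members. The shares given above, and beside each list, therefore depend on that choice. So may the calls of single marker and list genes, which are given only with all reaggregates taken as separate. The number called higher was 766 without flat culture 4 and 2121 without flat culture 3, and the number of members called was between 0 and 2 without single libraries. The median log2 difference was 0.57 over the members, of which 7 were higher and 2 lower, and 0.04 over all genes.

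The flat cultures of both sources were also compared with each other. Jak2, Stat5a, Stat5b and Socs2 were lower in both de Bruijn cultures than in both others, as was the case for 5771 genes, or 34.1%. Jak2 was at 31.9 ± 0.283 RPM (SD, n = 2) against 75.3 ± 24.9, and Stat5b at 28.1 ± 0.636 against 60.4 ± 19.7. The log2 difference was -1.19 for Jak2 (limma adjusted p = 0.105), -1.05 for Stat5b (0.136), -0.75 for Socs2 (0.154) and -0.66 for Stat5a (0.320), and 0 of the 9 members were called, against 965 genes, or 5.70%. Without any 1 of the 4 flat cultures 0 genes were called, in fits that assume a lone culture to vary like the others; with all 4, the unadjusted p was at most 0.05 for 3899 genes, of which 3 were members. Those 3899 genes were out of 16933 tested, and the 3 members out of 9. The median over all genes was -0.17, so that relative to it the differences were -1.02, -0.89, -0.58 and -0.49. Il3ra was at 20.3 ± 1.34 RPM in de Bruijn cultures and 18.7 ± 10.7 in the others. The summed adipocyte markers, given above, were higher in the de Bruijn cultures, and their part in these differences was not tested.

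In order of level per kb of exon, Il3ra led in reaggregates and was followed by Pim1 (11.8), Stat5b (11.0), Jak2 (10.3) and Stat5a (9.48). Within these 4 that followed, no gene differed from the next by more than both their SDs added together. Socs2 (6.97), Cish (1.37), Csf2rb (0.598) and Csf2rb2 (0.0590) came next. Il3ra differed from Pim1 by more than both SDs, as did Stat5a from Socs2 and Socs2 from Cish, but not Cish from Csf2rb or Csf2rb from Csf2rb2. In flat cultures the order was Il3ra (14.0), Jak2 (10.7), Socs2 (8.38), Stat5b (7.98), Stat5a (5.85), Pim1 (5.16), Cish (1.87), Csf2rb (0.114) and Csf2rb2 (0.00362). There no neighbours above Pim1 differed by more than their SDs, while Pim1 and Cish, Cish and Csf2rb, and Csf2rb and Csf2rb2 did. The exon length counts all annotated transcripts of a gene. Per kb of the longest coding transcript, the order changed, with Stat5a at 17.4 and Socs2 at 15.7 above Pim1 in reaggregates and Socs2 at 18.8 above Il3ra in flat cultures. Il3ra was then no longer apart from the next gene in reaggregates by more than both SDs, nor Stat5a from Socs2. In flat cultures Pim1 was no longer apart from Cish. Cish in reaggregates was however now apart from Csf2rb by more than both SDs, as Jak2 was from Cish. Cish, Csf2rb and Csf2rb2 kept the lowest ranks.

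Across the 10 libraries the members varied together only in part. Of the 36 pairs of members, the highest Pearson r of log2(RPM + 0.5) was 0.94 for Il3ra and Pim1, followed by 0.90 for Stat5a and Stat5b and 0.88 for Csf2rb and Csf2rb2, of which the latter 2 pairs share sequence. The lowest was -0.54, for Cish and Csf2rb2. These libraries differ in culture type and source, which all such values share, and r is given as a description.

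The genes most like a member were found by the same measure, over the same 10 libraries and all genes tested. For Il3ra they were Cic, a transcriptional repressor (r = 0.99), Klf13 (0.98) and Wnk4 (0.98). For Jak2 they were Serpina3h (0.97), Wdr66 (0.97) and Phf15 (0.97). For Stat5a they were Sgsm3 (0.99), Gpr108 (0.98) and Kdm4a, a histone demethylase (0.98). For Cish they were Ephx2, an epoxide hydrolase (0.93), Hgf, hepatocyte growth factor (0.92), and AC138388.3 (0.92). None of these 12 is a component of the IL-3 pathway as listed here.

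The other ligands and receptors that use the common beta chain were low or listed at 0. Csf2, Il5, Csf2ra and Il5ra had a value, and Il3 was not analysed here. Csf2 (GM-CSF) was listed at 0 in all libraries, Il5 was at most at 0.136 RPM, and Il5ra was above 0 in reaggregate 3 alone, far below the value of 1 read. Csf2ra, the GM-CSF receptor alpha chain, was the 1 gene of the list above the filter, at 1.92, 0.327 and 0.434 RPM without IL-3 and 2.72, 0.512 and 0.319 RPM with it. Csf2ra in flat cultures 1 to 4 was at 0.115, 0.239, 1.44 and 0 RPM, and it was not called in either comparison.

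Of the 8 other JAK and STAT genes, 7 were above the filter, and 1 was called higher in reaggregates and 0 lower, where the shares over all genes were 7.32% and 6.53%. That gene was Stat3, which carries signals of the IL-6 family, at 324 ± 105 RPM (SD, n = 6) against 119 ± 80.0 RPM (SD, n = 4), with a log2 difference of 1.63 (SE 0.39, limma adjusted p = 0.0108), although reaggregate 6, at 215 RPM, was below flat culture 3, at 226 RPM. Jak3 (0.90, adjusted p = 0.296) and Tyk2 (0.59, adjusted p = 0.164) were next in size and did not pass. The list's median log2 difference was 0.54 in this comparison and 0.00 with IL-3.

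Of the 20 receptor-proximal adaptors, kinases and phosphatases, 17 were above the filter, and 3 were called higher in reaggregates and 0 lower, against 7.32% and 6.53% of all genes. Tec, a kinase of the Tec family, had a mean of 14.2 ± 8.46 against 1.98 ± 2.41 RPM (log2 difference 3.0, limma adjusted p = 0.0165). Ptpn1, a phosphatase that dephosphorylates JAK2, had a mean of 157 ± 51.2 against 50.9 ± 21.2 RPM (log2 difference 1.64, adjusted p = 0.00228). Gab1, a docking protein, had a mean of 37.3 ± 3.18 against 18.2 ± 6.89 RPM (log2 difference 1.09, adjusted p = 0.00432). The median log2 difference of the list was 0.29, and 0.00 with IL-3. Tec was listed at 0 in both de Bruijn cultures and was at 2.99 and 4.91 RPM in flat cultures 1 and 3, so the size of its log2 differences depends on the pseudocount. Reaggregates 3 and 4, at 3.70 and 3.68 RPM, were below flat culture 3.

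Of the 10 other SOCS and PIAS inhibitors, all were above the filter and 0 were called in either direction between reaggregates and flat cultures, against 7.32% of all genes higher and 6.53% lower. Socs7 (log2 difference 0.97, limma adjusted p = 0.00545) and Socs3 (0.88, adjusted p = 0.0198) passed on p and not on fold, and Socs6 gave -0.61 (adjusted p = 0.0900). Socs3, which restrains JAK signalling downstream of IL-6 family receptors, was at 97.9, 97.0 and 131 RPM in reaggregates 1, 3 and 5 and at 82.3, 61.8 and 103 RPM in reaggregates 2, 4 and 6. It was thus lower with IL-3 in all 3 consecutive pairs, as were 1487 of all genes, or 8.78%, and 0 of the 9 members. Its log2 difference with IL-3 was -0.41 (limma unadjusted p = 0.109), and with the pairs as a block the unadjusted p was 0.00267 and the adjusted p 0.982. These IL-3 values of Socs3 were singled out after they were seen. The list's median log2 difference was 0.25 between the cultures and 0.06 with IL-3.

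Of 18 other genes known to respond to STAT5 or IL-3, 17 had a value and 16 were above the filter, while Osm was not analysed here. Reaggregates were called higher for 3 of them (Bcl6, Igf1 and Fos) and lower for 4 (Ccnd1, Ccnd2, Id1 and Gadd45g), against 7.32% and 6.53% of all genes. Igf1, a growth factor, had a mean of 260 ± 83.1 against 29.8 ± 32.2 RPM (log2 difference 4.36, limma adjusted p = 0.00506). It also differed between the flat cultures by source, at 53.6 and 61.4 RPM in cultures 1 and 3 and 2.03 and 2.05 RPM in the de Bruijn cultures (log2 difference -4.51, adjusted p = 0.00581), as did Ccnd2 in the other direction (2.12, adjusted p = 0.0202). Ccnd1, cyclin D1, had a mean of 219 ± 32.4 against 1435 ± 530 RPM (log2 difference -2.64, adjusted p = 6.6e-05). Fos, an immediate early gene, had a mean of 340 ± 29.5 against 138 ± 201 RPM (log2 difference 2.53, adjusted p = 0.0232). Flat culture 3, at 436 RPM, was however above every reaggregate, and the other flat cultures were at 16.9 to 79.8 RPM. The median log2 difference of the list was 0.15. With IL-3 the median was -0.02. The unadjusted limma p was at most 0.05 for 0 of them without pairs, against 68 of all 16933 genes, or 0.402%. With the pairs as a block it was at most 0.05 for 1 of them, against 564 of all genes. Higher with IL-3 among those 564 were 358, or 2.11% of all genes. The list gene was Ccnd1, higher with IL-3 in all 3 pairs (log2 difference 0.17, unadjusted p 0.0184, adjusted p 0.982 by limma).

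Of 19 other receptors that signal through STAT5, 13 were above the filter, and 6 were called higher in reaggregates (Epor, Il2rb, Lifr, Egfr, Pdgfra and Pdgfrb) and 0 lower, against 7.32% and 6.53% of all genes. Il2rb, at 0.637 to 1.42 RPM in reaggregates and at most 0.479 RPM in flat cultures, was above the filter through the reaggregates alone, so its call carries less weight. Pdgfrb, a PDGF receptor and stromal marker, had a mean of 738 ± 75.6 against 239 ± 109 RPM (log2 difference 1.74, limma adjusted p = 0.00103). Egfr, the EGF receptor, had a mean of 114 ± 32.7 against 32.5 ± 27.6 RPM (log2 difference 2.15, adjusted p = 0.00710). Lifr, the LIF receptor, had a mean of 11.5 ± 6.36 against 2.0 ± 2.34 RPM (log2 difference 2.38, adjusted p = 0.0119), but reaggregates 5 and 6, at 3.58 and 3.61 RPM, were below flat culture 3, at 5.51 RPM. The median log2 difference of the list was 0.42, and 0.03 with IL-3. With the pairs as a block, Osmr, the oncostatin M receptor, was the 1 gene of the list with an unadjusted p of at most 0.05. It was higher with IL-3 (log2 difference 0.18, unadjusted p 0.0329, adjusted p 0.982 by limma), as were 358 of all genes, or 2.11%, at the same threshold. Of the list, 3 genes were higher with IL-3 in all 3 pairs and 2 lower, against 12.7% and 8.78% of all genes. Osmr was chosen after its values were seen. In none of the 6 lists was a gene called with IL-3, in either form of the test.

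STAT5 dimers bind the motif TTCNNNGAA, which reads the same on both strands. It was searched in the RefSeq promoter windows (GRCm38.p6), which end 50 bases after the start of the gene. Of the 9 members, 7 had at least 1 window, and Csf2rb and Socs2 were not matched. The motif was found in the windows of Cish and Csf2rb2 and in none of those of Il3ra, Jak2, Stat5a, Stat5b and Pim1. Of all 32851 windows, 2726, or 8.30%, hold it, and 150, or 0.457%, hold 2 or more. The windows that hold it are shown around the motif because these were the members in which it was found.

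In Cish the motif occurs 2 times, over bases 1 to 9 and 12 to 20 of the annotated transcript, with 2 bases between them, in a window at chr9:107296409-107296708 on the plus strand. In Csf2rb2 it lies 15 to 7 bases before the start, in a window at chr15:78305672-78305971 on the minus strand. Capitals mark the motif, and the sequences run 5′ to 3′ on the strand of the gene.
Cish, chr9:107296654-107296683: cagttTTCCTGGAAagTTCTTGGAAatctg
Csf2rb2, chr15:78305718-78305747: agtgtccacaaTTCTGAGAAgcaagcaaag
The Cish values above, with log2 differences of 0.16, -0.41 and -0.12 within the 3 pairs, had both signs. A match is a description of sequence and does not show that a factor was bound in these cells.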

How the data were processed

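RNA-seq of OP9 cells was analysed from the deposited table of gene values. The authors aligned 50-base reads to NCBIM37/mm9 with TopHat 1.2.0 and Bowtie, divided reads that mapped to several genes, and deposited RPM values. Their own fold changes and adjusted p-values, from DESeq, were not used. The most frequent RPM other than 0 in each library was read as that of 1 read, which gave its depth. Because many values were not whole reads, no count test was run. Values were compared as log2(RPM + 0.5) with limma 3.58.1 in R 4.3.3 (empirical Bayes with a mean-variance trend, Benjamini-Hochberg adjustment over 16933 genes above 0.5 RPM in at least 1 library); calls required a fold of at least 2 and an adjusted p of at most 0.05. Fold changes on this scale understate those of low genes. The fit was tested on simulated data for 16933 genes with a log2 SD of 0.2 and independent libraries, in which 200 genes were changed by 2 log2 units. It called 186 of them for IL-3, 189 for reaggregates against flat cultures and 192 for flat source, and 0 other genes, which does not show its power at the spread of the real libraries. Single values were tested by exact two-sided permutation with scipy 1.17.1. Gene coordinates and exon lengths came from GENCODE M1, on the same build.

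Alternatives comprised 25 planned settings and 5 added after the values were seen. The members and lists were chosen with earlier results of these data known. From each list up to 3 genes were named, those with the largest absolute log2 difference between reaggregates and flat cultures among genes with a group mean of at least 5 RPM, and also the 3 smallest p-values for IL-3, the 3 genes most similar to 1 member of each role, and set haematopoietic markers. Outside this rule, the genes of the list of common beta chain cytokines and receptors (none of which reached that mean), Ccnd2, Osmr, further markers and the other called list genes were named after their values were seen. Il3, Osm and Spi1 were not analysed here, and protein identities were not computed.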

Additional observations from a re-analysis of the deposited data

Results flagged for a closer look

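Each member's RPM was examined for a single library far from the others, among the 4 flat cultures and among the 6 reaggregates. In 0 of these 18 groups was the gap of the highest or lowest library to its nearest neighbour, relative to the whole range, above Dixon's 95% critical value.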

How the results depend on the processing

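The IL-3 comparison gave 0 genes and 0 members called under each setting run, which included other pseudocounts, filters and scalings, all libraries in 1 fit, consecutive reaggregates as pairs, and each library left out. Of 163 member differences recomputed for IL-3, 146 kept their direction and side of the threshold and 17 changed sign, none of them called. Those were small differences, and the cause was not tested. Stat5b gave -0.00118 with quantile normalization. Without single libraries the log2 difference ran from -0.36 to 0.0883 for Il3ra, -0.0183 to 0.17 for Jak2, -0.15 to 0.0961 for Stat5a, -0.0941 to 0.13 for Stat5b, -0.41 to 0.30 for Cish and -0.30 to 0.26 for Pim1. With consecutive reaggregates as pairs, Pim1 gave 0.077 when reaggregates 1 and 2 were left out, and without 3 and 4 Stat5a gave 0.0505, Stat5b -0.00889 and Cish 0.0203. These last settings were chosen after the data were seen.

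Between reaggregates and flat cultures, 1 member was called, 2 with a pseudocount of 0.1, and between 0 and 2 without single libraries. With a pseudocount of 0.1, 1387 of all genes were called higher and 1261 lower, against 1239 and 1106. Of 207 member differences, 189 kept their direction and side of the threshold. Jak2, not called, gave -0.0127 with quantile normalization, -0.12 to 0.40 without single libraries and -0.51 against flat cultures with no group named, while Socs2 gave 0.15 against de Bruijn cultures. The genes called higher numbered between 766 and 2121 without single libraries.

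With replicate number as a block, 1885 genes were called higher and 3 members, among them Csf2rb (log2 difference 1.38, limma adjusted p = 0.0350). Cultures of 1 number need not belong together: deviations of a flat culture and the reaggregate of its number correlated across genes, which are not independent replicates, with r between -0.213 and 0.155. Counts also differed in settings with smaller groups. With consecutive reaggregates averaged, 312 genes were called higher and 429 lower, with only IL-3 reaggregates 277 and 360, and with only those without IL-3 345 and 474, with 0 members in each. Against de Bruijn cultures alone, 2579 of 16933 genes were called higher and 1775 lower, and 3 of 9 members were called. Against those with no group named there were 627 higher, 1044 lower and 1 member called. The cause of these differences was not tested.

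Between flat cultures by source, 965 genes were called, 166 without a filter on low values, 1458 above 1 RPM in at least 2 libraries and 0 without any 1 culture, when a lone culture is assumed to vary like the others. Without single cultures the log2 difference ran from -0.37 to 0.84 for Il3ra, -0.34 to 0.99 for Csf2rb and -0.34 to 0.46 for Pim1. Depth limits Csf2rb, which rested on few reads, and Csf2rb2, near or under the floor of 3 reads.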
